A study of Mus musculus with 24 samples.

Results

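Interferon-stimulated genes are the genes that cells switch on in answer to interferons, and 38 of them, named by symbol, were followed here in mouse liver and in cultured mouse hepatocytes that lacked NEMO, KEAP1 or both. The list held 5 transcription factors, 4 sensors of foreign nucleic acid, 2 genes of the ISG15 system, 3 genes of the IFIT family, 5 of the OAS family, 9 other antiviral effectors, 7 interferon-inducible GTPases and 3 genes of antigen processing. A gene was represented by a probe set whose platform annotation gave exactly 1 symbol, and by the brightest such probe set where there was a choice. In this way 35 of the 38 genes were found among 18820 measured genes. No probe set was listed for Ifi44, and the probe sets for Igtp and Gbp6 carried the symbols of other genes as well, so these 3 genes have no value here. Of the 35 genes, Irf1 alone had a second probe set, which was dim (2.69 to 3.46 on the log2 scale over the 24 arrays) and was not used.

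RNA was hybridised to 24 Affymetrix whole-transcript arrays, 3 for each combination of 2 sample types and 4 genotypes, all labelled as from male mice of 8 weeks. The genotypes were NEMOΔhepa (called NEMO knockout below), KEAP1Δhepa (KEAP1 knockout), NEMOΔhepa/KEAP1Δhepa (double knockout) and NEMOf/f, the control, whose NEMO gene carries loxP sites. All knockouts came from crosses to Alfp-Cre mice, whose Cre acts in the hepatocyte lineage, so the other cells of a knockout liver still had the genes. Samples were either primary hepatocytes, freed from the liver by collagenase perfusion and cultured to the next day, or whole liver. The labels name a mouse for each sample but no more of its origin, so p-values measure the spread between these arrays. Levels are log2 values, on which a difference of 1 is a 2-fold difference, and with 3 arrays in a group the number of arrays limits the precision.

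Interferons are secreted proteins that warn cells of infection. Type I and type III interferons act through a complex that holds STAT2 and IRF9 and binds the interferon-stimulated response element (ISRE), and genes induced by type II interferon, interferon gamma, often carry the gamma-activated site (GAS). NEMO, the product of Ikbkg, is required by the IκB kinase complex to activate NF-κB, and it is also needed for interferon induction by the RIG-I-like sensors. KEAP1 holds the transcription factor NRF2 in check, so that its loss raises NRF2 targets such as Nqo1. In liver, interferon-stimulated genes are expressed by hepatocytes and by macrophages, endothelial cells and lymphocytes alike.

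Promoter sequence shows which of the 2 elements the genes carry, and it is given here for 5 genes whose values are described below. RefSeq promoter windows on GRCm38.p6, from 250 bases before to 50 bases after each start, were matched for 28 of the 35 genes. The ISRE was searched as GAAANNGAAA and the GAS as TTCNNNGAA, on both strands. In each line below, 120 bases are printed 5′ to 3′ on the gene's own strand, with the matched letters in capitals.
Ifit1: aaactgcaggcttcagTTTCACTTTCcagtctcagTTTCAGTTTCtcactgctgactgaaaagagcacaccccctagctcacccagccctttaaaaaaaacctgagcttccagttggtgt
Isg15: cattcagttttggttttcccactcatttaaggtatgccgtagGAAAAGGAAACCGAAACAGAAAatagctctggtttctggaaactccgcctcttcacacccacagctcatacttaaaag
Gbp2: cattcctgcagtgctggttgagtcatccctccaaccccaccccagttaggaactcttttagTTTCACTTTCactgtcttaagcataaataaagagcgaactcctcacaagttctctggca
Bst2: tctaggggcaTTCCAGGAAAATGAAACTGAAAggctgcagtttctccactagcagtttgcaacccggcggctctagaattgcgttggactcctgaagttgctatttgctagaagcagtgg
Irf8: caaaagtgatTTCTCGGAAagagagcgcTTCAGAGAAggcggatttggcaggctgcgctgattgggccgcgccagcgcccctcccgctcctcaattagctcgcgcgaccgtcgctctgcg
The Ifit1 window (chr19:34640769-34640888, plus strand) ended at the base before the start and held 2 separate ISRE matches, at 104 to 95 and 85 to 76 bases before the start. The Isg15 window (chr4:156200819-156200938, minus strand) held 3 ISRE matches that overlapped one another, between 78 and 57 bases before the start. Gbp2 (chr3:142620543-142620662, plus strand) had a single ISRE match, at 59 to 50 bases before the start. In Bst2 (chr8:71537499-71537618, minus strand) 2 ISRE matches overlapped each other, and the first of them also overlapped a GAS match. Irf8 (chr8:120736177-120736296, plus strand) had no ISRE match in its 300 bases but 2 GAS matches, at 171 to 163 and 153 to 145 bases before the start. Over the matched genes, the ISRE was present in 15 of 28 promoters (53.6%), against 3.99% of 27025 mouse gene promoters of the same length. The GAS was present in 10 of 28 (35.7%), against 9.55% of the same promoters. All 5 GTPase promoters and 2 of 3 IFIT promoters held an ISRE, and 0 of 3 antigen-processing promoters did. These matches describe sequence and are not evidence of binding.

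The targeted genes and a few sex and tissue markers were read on every array before the comparisons. In hepatocytes, Ikbkg lay at 6.26 to 6.60 in NEMO knockouts and 6.01 to 6.29 in double knockouts, against 6.63 to 6.69 in controls, and in liver at 6.14 to 6.26 and 6.18 to 6.47, against 6.40 to 6.86 in controls. Keap1 in hepatocytes lay at 5.73 to 5.91 in KEAP1 knockouts and 5.62 to 5.87 in double knockouts, against 5.90 to 6.32 in controls. In liver Keap1 lay at 5.38 to 5.76 and 5.75 to 5.94, against 5.88 to 6.35 in controls. Against control, Ikbkg had an adjusted p under 0.05 in limma only in double knockout hepatocytes (-0.55, adjusted p = 0.0086). In the other groups lacking NEMO its adjusted p was 0.0982 to 0.177. The Keap1 decreases missed the threshold too, with an adjusted p of 0.175 to 0.617 in KEAP1 and double knockouts. Mean Ikbkg was 6.93 and 7.10 in KEAP1 knockout hepatocytes and liver, above 6.67 and 6.69 in controls. In all, 4 arrays went against their labels or stood apart. The liver control array 3 had an Nqo1 level of 9.17, in the range of liver arrays without KEAP1 (8.60 to 9.36), against 4.71 and 5.37 on the other control liver arrays. The liver double knockout array 3 had the adipocyte gene Adipoq at 7.17, while every other array had it at 2.76 or below. The hepatocyte double knockout array 3 and the hepatocyte control array 1 were labelled male, yet had Xist at 9.76 and 9.65 and the Y-linked gene Eif2s3y at 2.71 and 2.51. The 22 other arrays had Xist at 2.00 to 2.98 and Eif2s3y at 6.74 to 7.82. Results are therefore also given without these 4 arrays. In hepatocytes Nqo1 lay at 8.07 to 8.65 in KEAP1 knockouts, against 7.77, 5.00 and 6.63 on control arrays 1, 2 and 3, a wide spread among controls. The Xist range is a guide to the level of an unexpressed gene here, and differences between levels close to it understate any difference in RNA.

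In cultured hepatocytes lacking NEMO, alone or with KEAP1, Ifit1 and Isg15 fell relative to controls, while Irf8 and Oasl2 rose, although without the 4 arrays the Isg15 calls and the Irf8 call of NEMO knockouts were lost. The values called Isg15 are those of a probe set whose locus was not settled, as described below. In double knockout hepatocytes 9 of the 35 genes passed the test against control (an adjusted p under 0.05, in a fit over all genes): Ifit1, Usp18, Ifit3, Isg15, Irf9 and Psmb8 fell, and Irf8, Oas2 and Oasl2 rose. That share of 25.7% stood beside 9.72% of all 18820 genes that passed the same test. In NEMO knockout hepatocytes 4 of 35 genes passed (11.4%), beside 6.65% of all genes, with Ifit1 and Isg15 lower and Irf8 and Oasl2 higher. In KEAP1 knockout hepatocytes 1 of 35 passed (2.86%), beside 1.87% of all genes, and that gene, Oasl2, was higher. The median change over the 35 genes was -0.26 in double knockouts, -0.18 in NEMO knockouts and -0.19 in KEAP1 knockouts, against -0.03, -0.02 and -0.00 over all genes. These 3 comparisons share their control arrays, so they are not independent of one another.

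**Figure D1:**
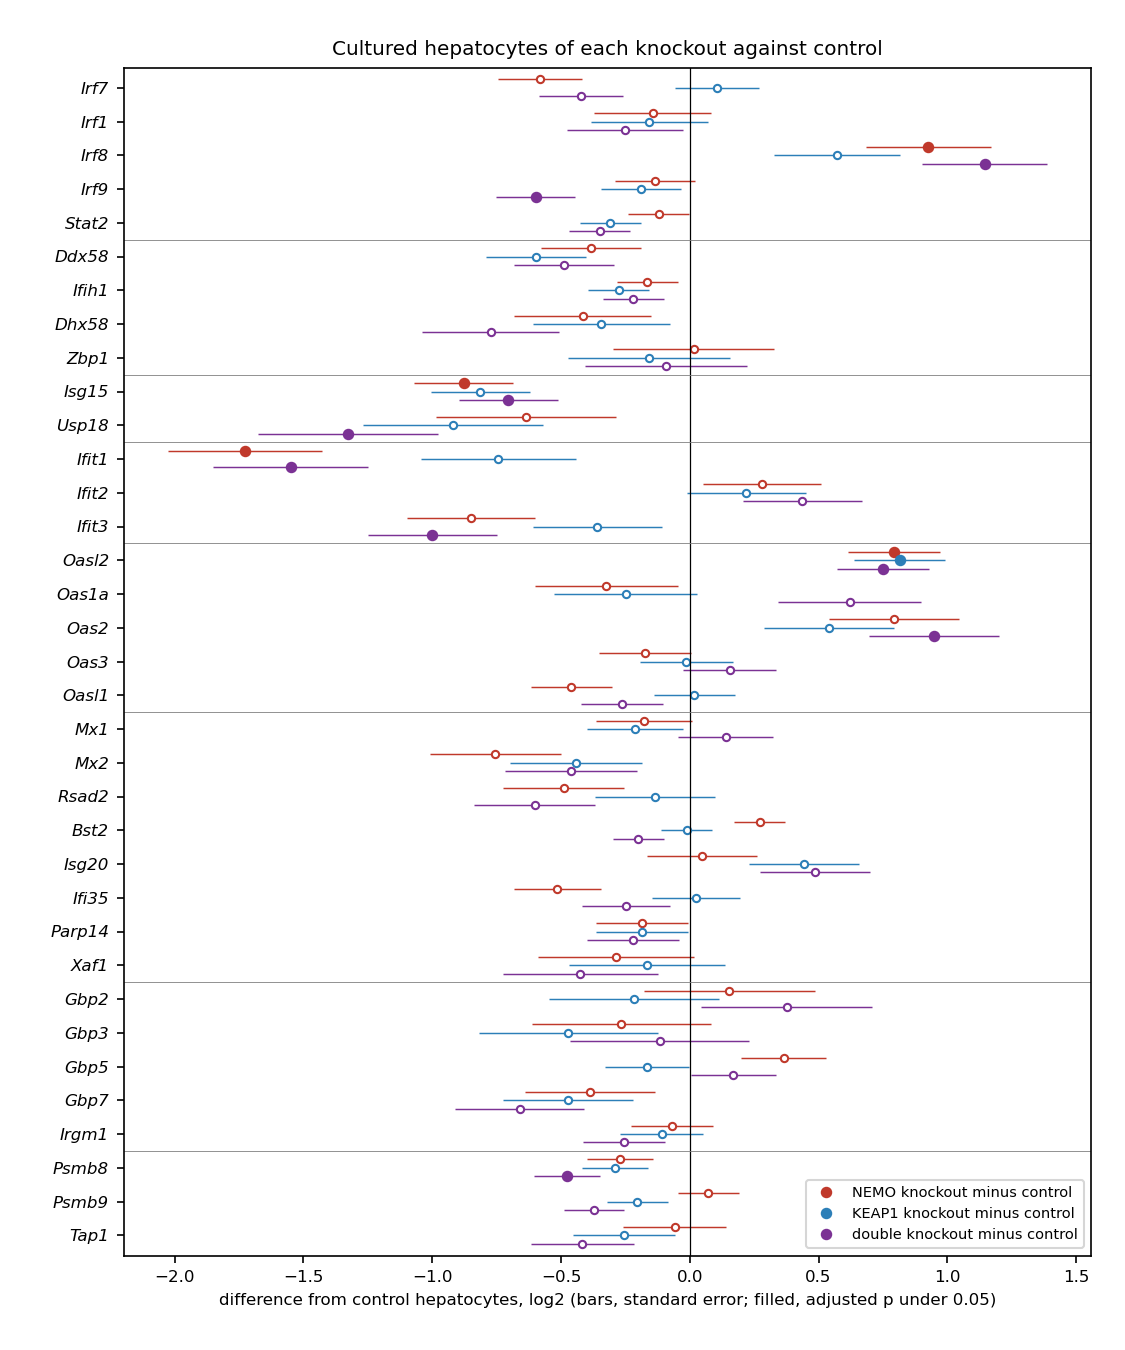
Change of each gene in cultured hepatocytes, as the log2 difference from control hepatocytes with its standard error (x axis), for NEMO, KEAP1 and double knockouts; genes run down the y axis by role and filled points passed the test. Ifit1 lies furthest to the left in NEMO and double knockouts, at -1.73 and -1.55, and Irf8 furthest to the right, at 0.93 and 1.14.

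The counts depended on single arrays. Without the 4 arrays that stood apart, 5 of the 9 calls in double knockout hepatocytes were kept (Ifit1, Usp18, Irf8, Oas2 and Oasl2), beside 9.23% of all genes, 2 of the 4 in NEMO knockouts (Ifit1 and Oasl2), beside 5.58%, and 0 of 35 in KEAP1 knockouts, beside 1.82%. With 1 array left out at a time, the count ran from 4 to 13 in double knockouts, beside 5.54% to 10.3% of all genes. It was 4 without control array 2 or double knockout array 1, 5 without control array 1 and 6 without double knockout array 2. It was 13 without control array 3, beside 8.49%, when Ddx58, Dhx58, Gbp7, Ifih1 and Irf7 also passed as lower and Oasl2 no longer passed. In NEMO knockouts the count was 2 without control array 1 or NEMO knockout array 1, and at most 5, beside 4.29% to 6.96% of all genes over the arrays left out. In KEAP1 knockouts it was 0 without control array 1 or any 1 of the KEAP1 or NEMO knockout arrays, beside 0.654% to 1.72% of all genes. Without control array 3 it was 3, beside 2.15%, with Ddx58, Ifit1 and Isg15 lower by 0.82, 1.11 and 1.03 on the log2 scale.

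**Figure D2:**
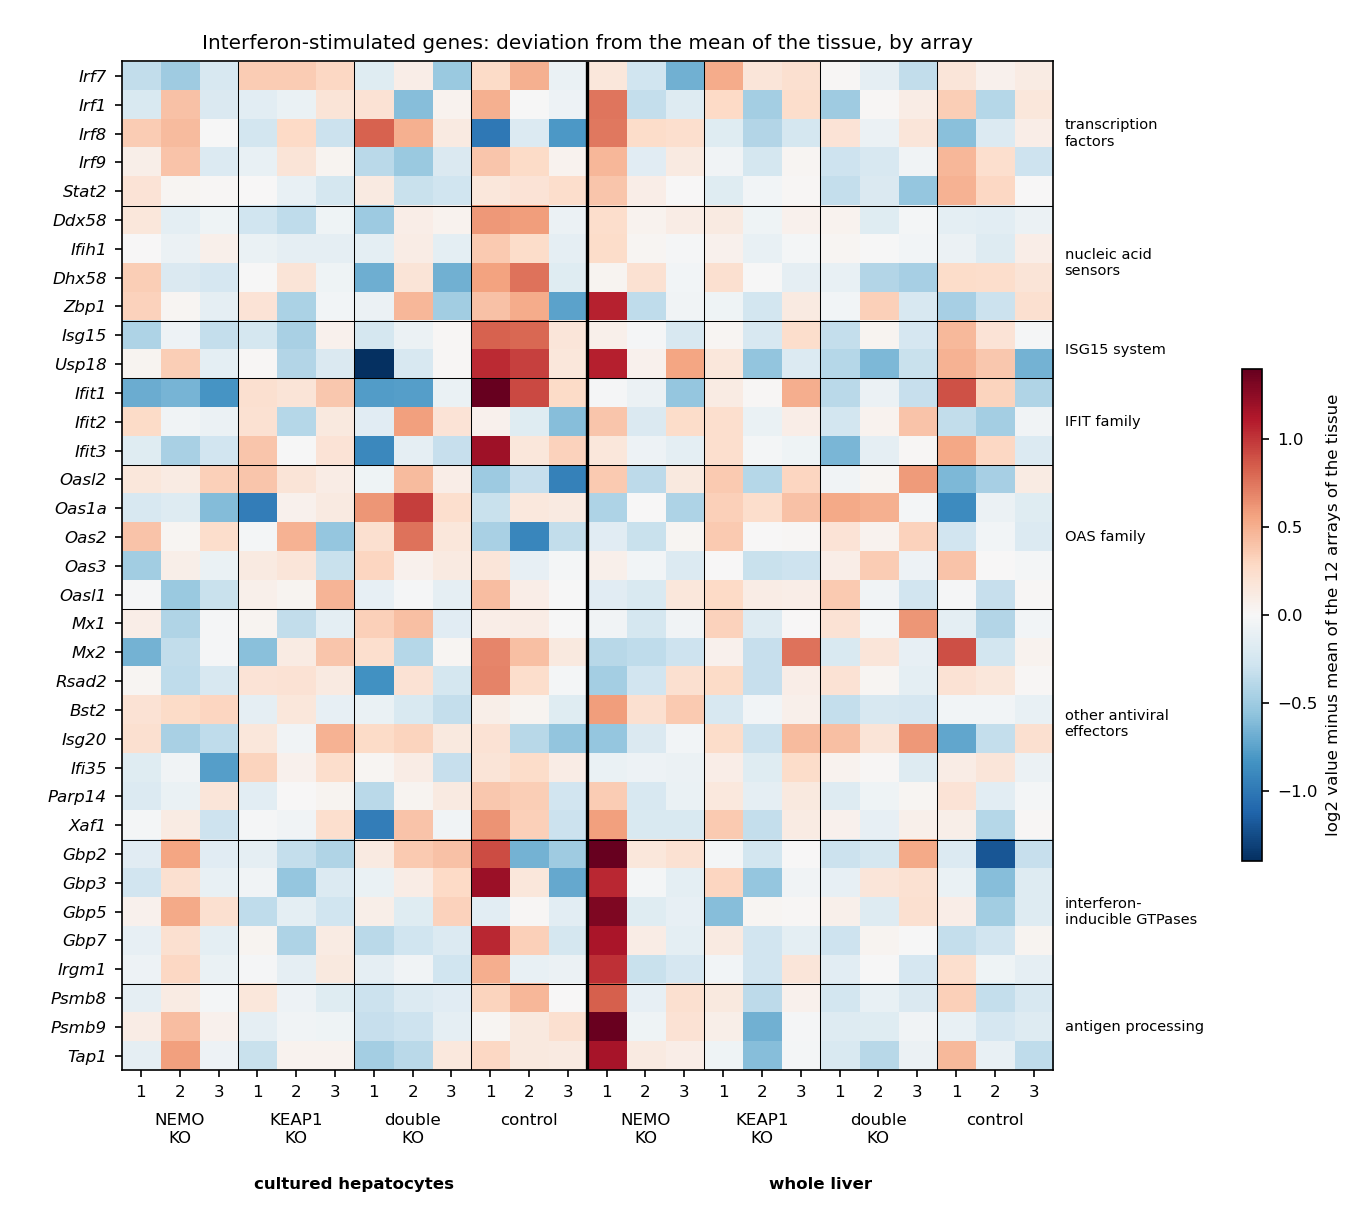
Level of each of the 35 genes on each of the 24 arrays, as the log2 difference from that gene's mean over the arrays of the same sample type; rows are genes by role, columns are arrays by group, and the colour scale ends at 1.4 in either direction. The columns of liver NEMO knockout array 1 and hepatocyte control array 1 hold the highest value of 17 and 15 genes.

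The IFIT genes encode proteins that bind foreign RNA and block its translation. With all arrays, Ifit1 fell further in NEMO and double knockout hepatocytes than any other gene of the list. Ifit1 lay at 4.78, 4.82 and 4.65 in NEMO knockout hepatocytes, at 5.70, 5.65 and 5.86 in KEAP1 knockouts and at 4.70, 4.71 and 5.38 in double knockouts, against 7.30, 6.40 and 5.74 in controls. All NEMO and double knockout arrays were below all control arrays, the KEAP1 knockouts overlapped the controls, and the controls themselves were spread over more than 1 unit. Ifit1 fell by 1.73 (SE 0.30, adjusted p = 0.00335) in NEMO knockouts and by 1.55 (SE 0.30, adjusted p = 0.00481) in double knockouts. It kept its call in both when any 1 array was left out. Without hepatocyte control array 1 and the other arrays that stood apart, the change was -1.32 (adjusted p = 0.00122) in NEMO knockouts and -1.37 (adjusted p = 0.00103) in double knockouts.

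Ifit3, a partner of Ifit1 in the same complex in human cells, lay at 5.93, 5.64 and 5.83 in NEMO knockout hepatocytes, at 6.49, 6.10 and 6.29 in KEAP1 knockouts and at 5.20, 5.98 and 5.78 in double knockouts, against 7.29, 6.25 and 6.42 in controls. The NEMO and double knockouts lay below the controls without overlap. Ifit3 fell by 1.00 (SE 0.25, adjusted p = 0.0218) in double knockouts, while the difference of -0.85 in NEMO knockouts did not pass (adjusted p = 0.0617). The double knockout call was lost without control array 1 or double knockout array 1, with an adjusted p of up to 0.0931, and without the 4 arrays (-0.75, adjusted p = 0.0612). Ifit2 was dim on all arrays, at 3.19 to 4.53, and passed in no comparison.

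ISG15 is a ubiquitin-like protein attached to other proteins in interferon-treated cells, and USP18 removes it and also dampens the type I interferon receptor. Isg15 lay at 4.64, 5.00 and 4.73 in NEMO knockout hepatocytes, at 4.82, 4.61 and 5.13 in KEAP1 knockouts and at 4.82, 4.99 and 5.09 in double knockouts, against 5.90, 5.87 and 5.24 in controls. All 9 knockout arrays were below all 3 controls, of which array 3 was the closest. Isg15 fell by 0.88 (SE 0.19, adjusted p = 0.0141) in NEMO knockouts and by 0.71 (SE 0.19, adjusted p = 0.0351) in double knockouts. In KEAP1 knockouts it differed by -0.81 (SE 0.19) and missed the threshold (adjusted p = 0.0519). The NEMO knockout call was lost without control array 1, control array 2 or NEMO knockout array 1 (adjusted p of up to 0.0652), and the double knockout call without control array 1 or 2 or double knockout array 1 or 2 (up to 0.127). The adjusted p was 0.0624 and 0.12 without the 4 arrays. Of the 10 probe sets nearest to this one by number, 9 belong to genes on chromosome 17 and 1 to a gene on chromosome 4, where Isg15 lies, so the locus that the probe set reads was not settled. Isg15 was the only 1 of the 35 genes whose neighbouring probe sets lay mostly on another chromosome.

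Usp18 lay at 5.82, 6.13 and 5.65 in NEMO knockout hepatocytes, at 5.81, 5.37 and 5.58 in KEAP1 knockouts and at 4.18, 5.56 and 5.80 in double knockouts, against 6.83, 6.75 and 5.95 in controls. Double knockout array 1 was far below the others of its group, and the double knockouts did not overlap the controls. Usp18 fell by 1.33 (SE 0.35, adjusted p = 0.0293) in double knockouts, a call lost without control array 1, control array 2 or double knockout array 1 (adjusted p of up to 0.0992). The differences of -0.64 in NEMO knockouts and -0.92 in KEAP1 knockouts did not pass (adjusted p = 0.354 and 0.245).

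**Figure D3:**
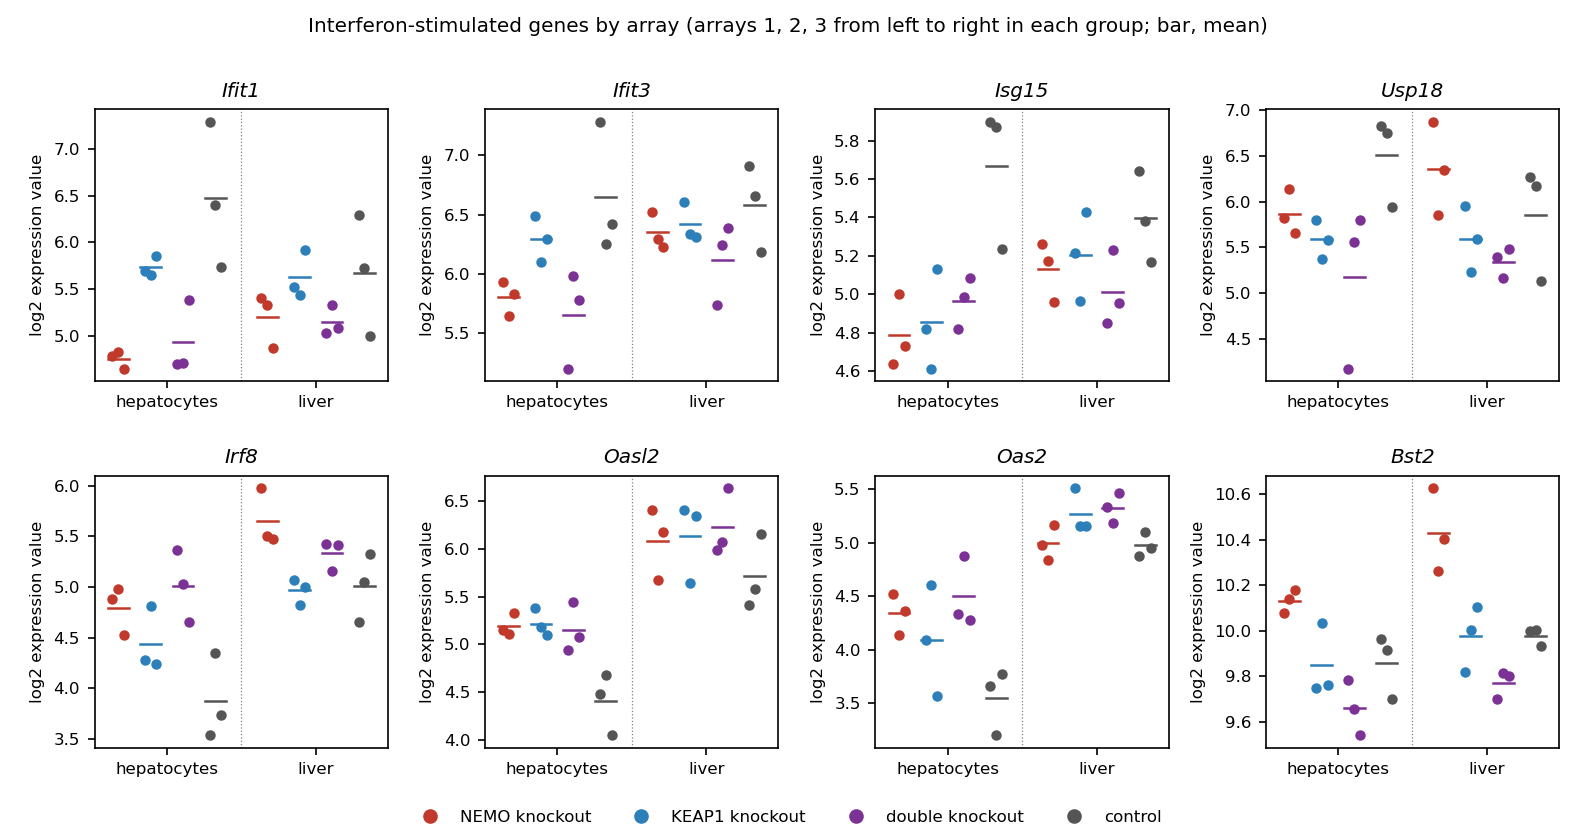
Level of 8 interferon-stimulated genes on every array (y axis, log2), with the groups along the x axis from NEMO, KEAP1 and double knockout to control, hepatocytes left of liver; points are arrays 1, 2 and 3 from left to right and bars are means. Hepatocyte control array 1 holds the highest Ifit1 level of all 24 arrays, 7.30.

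Among the transcription factors, Irf8 rose and Irf9 fell in double knockout hepatocytes. Irf8, a factor of macrophage and dendritic cell development that interferon gamma also induces, lay at 4.88, 4.98 and 4.53 in NEMO knockout hepatocytes, at 4.27, 4.81 and 4.23 in KEAP1 knockouts and at 5.36, 5.03 and 4.65 in double knockouts, against 3.53, 4.34 and 3.73 in controls. The NEMO and double knockouts lay above the controls without overlap, and the KEAP1 knockouts overlapped them. The control levels of Irf8 were not far above that of an unexpressed gene. Irf8 rose by 1.14 (SE 0.24, adjusted p = 0.00866) in double knockouts, a call kept when any 1 array was left out and without the 4 arrays (1.16, adjusted p = 0.0151). It rose by 0.93 (SE 0.24, adjusted p = 0.0377) in NEMO knockouts, but that call was lost without hepatocyte control array 1 or 3, NEMO knockout array 1 or 2, KEAP1 knockout array 1 or double knockout array 2 (adjusted p of up to 0.141), and without the 4 arrays (0.76, adjusted p = 0.102).

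Irf9, the DNA-binding part of the complex that reads the ISRE, lay at 6.25, 6.56 and 5.98 in NEMO knockout hepatocytes, at 6.07, 6.35 and 6.21 in KEAP1 knockouts and at 5.80, 5.64 and 5.96 in double knockouts, against 6.55, 6.43 and 6.21 in controls. Only the double knockouts were clear of the controls, and there Irf9 fell by 0.60 (SE 0.16, adjusted p = 0.0264). The call was lost without control array 1 or 2 or double knockout array 1 or 2 (adjusted p of up to 0.12), and without the 4 arrays (adjusted p = 0.0667). Irf7, the main amplifier of type I interferon production, lay at 6.66, 6.52 and 6.78 in NEMO knockout hepatocytes, at 7.36, 7.36 and 7.30 in KEAP1 knockouts and at 6.85, 7.10 and 6.49 in double knockouts, against 7.28, 7.51 and 6.92 in controls. The NEMO knockouts lay below the controls without overlap, and the difference of -0.58 missed the threshold (adjusted p = 0.0521). Stat2, the partner of IRF9, differed by -0.35 in double knockouts (adjusted p = 0.0891), and Irf1, which interferon gamma induces, by -0.25 (adjusted p = 0.581). No nucleic acid sensor passed against control in hepatocytes. Ddx58, which encodes the RNA sensor RIG-I, lay at 7.38, 7.08 and 7.16 in NEMO knockouts, at 6.95, 6.87 and 7.17 in KEAP1 knockouts and at 6.72, 7.31 and 7.28 in double knockouts, against 7.83, 7.80 and 7.14 in controls, where array 3 fell among the knockouts.

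The OAS family, enzymes and related proteins of the pathway that activates RNase L, held the other genes that rose. Oasl2 lay at 5.15, 5.11 and 5.33 in NEMO knockout hepatocytes, at 5.38, 5.18 and 5.09 in KEAP1 knockouts and at 4.94, 5.44 and 5.08 in double knockouts, against 4.49, 4.68 and 4.05 in controls. All 9 knockout arrays were above all 3 controls. Oasl2 rose by 0.79 (SE 0.18, adjusted p = 0.0159), by 0.81 (SE 0.18, adjusted p = 0.0374) and by 0.75 (SE 0.18, adjusted p = 0.0165) in NEMO, KEAP1 and double knockouts. The NEMO knockout call was lost without control array 3 or NEMO knockout array 3 (adjusted p of up to 0.062), and the double knockout call without control array 3 or double knockout array 2 (up to 0.0915). The KEAP1 knockout call was lost without control array 1 or 3 or any 1 of the KEAP1 or NEMO knockout arrays (up to 0.164), and without the 4 arrays (adjusted p = 0.0675).

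Oas2 lay at 4.52, 4.14 and 4.36 in NEMO knockout hepatocytes, at 4.09, 4.60 and 3.57 in KEAP1 knockouts and at 4.34, 4.88 and 4.27 in double knockouts, against 3.66, 3.20 and 3.77 in controls. The NEMO and double knockouts were above the controls without overlap, at levels not far above that of an unexpressed gene. Oas2 rose by 0.95 (SE 0.25, adjusted p = 0.0309) in double knockouts, and the call was lost without control array 1 or 2 or double knockout array 1 or 2 (adjusted p of up to 0.148). In NEMO knockouts the difference of 0.79 did not pass (adjusted p = 0.0868). Oas1a, Oas3 and Oasl1 passed in no comparison of hepatocyte genotypes. For Oasl1 the differences were -0.46 in NEMO knockouts (adjusted p = 0.116) and -0.26 in double knockouts (adjusted p = 0.368).

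Psmb8, an inducible subunit of the immunoproteasome that cuts proteins into peptides for MHC class I, lay at 6.70, 6.94 and 6.80 in NEMO knockout hepatocytes, at 6.98, 6.75 and 6.65 in KEAP1 knockouts and at 6.52, 6.63 and 6.66 in double knockouts, against 7.13, 7.28 and 6.83 in controls. The double knockouts were the lowest group and did not overlap the controls. Psmb8 fell by 0.48 (SE 0.13, adjusted p = 0.0325) in double knockouts, a call lost without control array 1 or 2 or double knockout array 1 or 2 (adjusted p of up to 0.127), and without the 4 arrays (adjusted p = 0.103). Its neighbours in the genome Psmb9 and Tap1, another such subunit and a peptide transporter, differed by -0.37 and -0.42 without passing (adjusted p = 0.0671 and 0.241). Of the other effectors, Mx2 (-0.75, adjusted p = 0.108) and Ifi35 (-0.51, adjusted p = 0.0998) had the lowest adjusted p in NEMO knockouts, and Rsad2, which encodes the antiviral enzyme viperin, had the largest difference in double knockouts (-0.60, adjusted p = 0.14). Mx1, a dynamin-like antiviral protein, was dim, at 3.60, 3.08 and 3.49 in NEMO knockout hepatocytes, 3.54, 3.16 and 3.37 in KEAP1 knockouts and 3.84, 3.93 and 3.35 in double knockouts, against 3.60, 3.61 and 3.50 in controls, and all groups overlapped. No GTPase passed against control in hepatocytes. Gbp2, a guanylate-binding protein gene, lay at 4.62, 5.33 and 4.62 in NEMO knockouts, at 4.65, 4.45 and 4.36 in KEAP1 knockouts and at 4.91, 5.15 and 5.19 in double knockouts, against 5.70, 4.12 and 4.29 in controls, whose array 1 was the highest of the 12.

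Markers of other liver cells differed between the hepatocyte groups along with these genes. The mean level of 11 macrophage markers lay at 7.35 to 7.70 in NEMO knockout hepatocytes, 6.29 to 7.01 in KEAP1 knockouts and 7.77 to 8.22 in double knockouts, against 5.48 to 6.41 in controls, and 10, 3 and 11 of the 11 passed as higher, beside 6.65%, 1.87% and 9.72% of all genes that passed in either direction. The 6 endothelial markers lay at 7.46 to 7.81, 7.08 to 7.60 and 7.83 to 8.00, against 5.58 to 6.50 in controls, and all 6 passed as higher in each knockout. The 6 stellate cell markers lay at 6.75 to 6.98, 5.74 to 5.84 and 6.36 to 6.52, against 4.78 to 5.35 in controls, and 5, 2 and 5 passed as higher. Without the 4 arrays that stood apart, 0 macrophage and 5 endothelial markers passed in KEAP1 knockouts, and the other counts were as given. The 7 measured hepatocyte markers lay at 12.44 to 12.82 on all 24 arrays and none passed. For T and NK cells, B cells and plasmacytoid dendritic cells 0 markers passed. The 6 conventional dendritic cell markers lay at 3.70 to 3.92 in NEMO knockouts, 3.56 to 3.67 in KEAP1 knockouts and 3.71 to 4.05 in double knockouts, against 3.41 to 3.53 in controls, and 1 of them, Clec9a, passed in NEMO and in double knockouts (0.75 and 1.10). The 5 neutrophil markers lay at 3.12 to 3.47, 2.99 to 3.30 and 3.34 to 4.06, against 3.02 to 3.24 in controls, and 1 of them, S100a8, passed in double knockouts (1.07). Of the genes of the list, Oasl2 alone passed in all 3 knockouts, as the endothelial markers did. The part of these cells in the changes of interferon-stimulated genes was not tested. In such bulk samples, fewer cells of a type and less RNA per cell cannot be told apart.

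**Figure D4:**
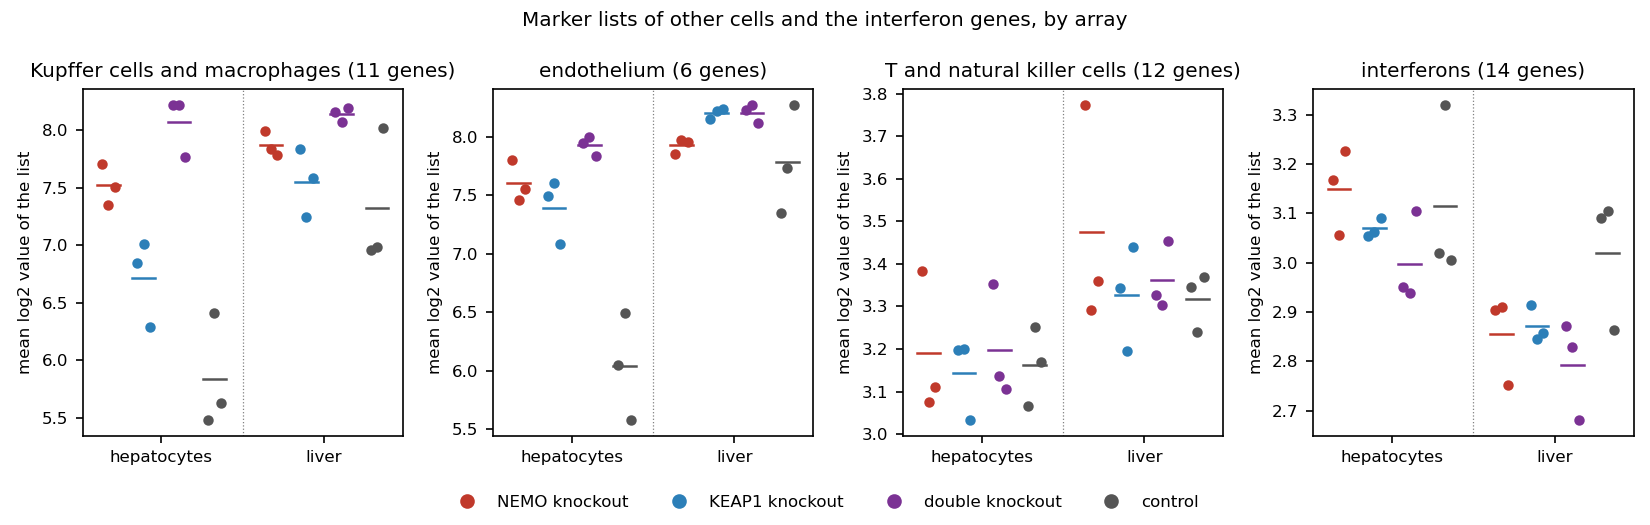
Mean log2 level of the markers of macrophages, endothelium and T and NK cells and of the interferon genes on each array (y axis; points are arrays, bars are means), with the groups along the x axis, hepatocytes left of liver and knockouts left of control. The macrophage markers lie at 7.77 to 8.22 in double knockout hepatocytes, against 5.48 to 6.41 in control hepatocytes.

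In whole liver none of the 35 genes passed in a knockout against control. In NEMO knockout liver 0 of 35 passed, beside 1.33% of all genes, with 5 at an unadjusted p under 0.05 in the same limma fit. In KEAP1 knockout liver 0 of 35 passed, beside 0% of all genes (2 at an unadjusted p under 0.05), and in double knockout liver 0 of 35, beside 0.00531% (8 at an unadjusted p under 0.05). Leaving out the 4 arrays raised the counts in NEMO and double knockout liver, and the share of all genes rose with them. In NEMO knockout liver 4 of 35 genes then passed (11.4%), a share no higher than the 12% of all genes. Bst2 (0.43, adjusted p = 0.0302), Gbp2 (1.36, adjusted p = 0.0394) and Irf8 (0.80, adjusted p = 0.0166) were higher and Ifit1 (-0.81, adjusted p = 0.0324) was lower. In double knockout liver 4 of 35 passed (11.4%), near the 9.2% of all genes. Isg20 (0.83, adjusted p = 0.0494) and Oas1a (1.00, adjusted p = 0.024) were higher, and Ifit3 (-0.80, adjusted p = 0.0177) and Stat2 (-0.66, adjusted p = 0.011) were lower. In KEAP1 knockout liver 0 passed, beside 5.26%.

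Liver control array 3, which had the high Nqo1, decided much of this. Without that array alone, 3 of 35 genes (8.57%) passed in NEMO knockout liver (Bst2, Ifit1 and Irf8), beside 7.49% of all genes. In double knockout liver 5 of 35 (14.3%) passed, beside 11.7% of all genes. There Stat2, Dhx58, Ifit1 and Ifit3 differed by -0.75, -0.58, -0.86 and -0.67 and Isg20 by 0.93. Each share was near that of all genes, which had been 1.33% and 0.00531% with all arrays. The rise in calls is therefore not particular to the 35 genes. Without liver double knockout array 3, 1 gene passed in NEMO knockout liver, beside 3.52%. The macrophage markers averaged 7.79 to 8.00 in NEMO knockout liver, against 6.96 and 6.98 on control liver arrays 1 and 2 and 8.02 on control liver array 3, and their part in these calls was not tested. Stat2 lay at 7.48, 7.61 and 7.28 in double knockout liver, against 8.30, 8.11 and 7.82 in control liver, and the groups did not overlap. Dhx58, a RIG-I-like receptor without a signalling domain, lay at 5.70, 5.39 and 5.34 in double knockout liver, against 6.06, 6.05 and 5.98 in control liver, also without overlap. In a fit with the replicate number as a block these 2 of the 35 genes (5.71%) passed in double knockout liver, near the 4.25% of all genes. The changes were -0.62 (adjusted p = 0.0318) for Stat2 and -0.56 (adjusted p = 0.034) for Dhx58. Ifit1 lay at 5.40, 5.33 and 4.87 in NEMO knockout liver, at 5.53, 5.43 and 5.92 in KEAP1 knockout liver and at 5.03, 5.33 and 5.09 in double knockout liver, against 6.30, 5.73 and 4.99 in control liver. Array 3 of the control group was below all but 1 of the knockout arrays, and arrays 1 and 2 were above all NEMO and double knockout arrays.

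Of the other genes followed in every liver group, none passed against control. Irf7 lay at 7.25, 6.80 and 6.42 in NEMO knockout liver, at 7.60, 7.26 and 7.31 in KEAP1 knockout liver and at 7.10, 6.96 and 6.75 in double knockout liver, against 7.26, 7.15 and 7.20 in control liver. The double knockouts were all below the controls, and the other groups overlapped them. Isg15 lay at 5.26, 5.17 and 4.96 in NEMO knockout liver, at 5.21, 4.97 and 5.43 in KEAP1 knockout liver and at 4.85, 5.23 and 4.96 in double knockout liver, against 5.64, 5.38 and 5.17 in control liver, and each knockout overlapped the controls. Ddx58 lay at 7.61, 7.41 and 7.47 in NEMO knockout liver, at 7.49, 7.31 and 7.43 in KEAP1 knockout liver and at 7.42, 7.19 and 7.34 in double knockout liver, against 7.22, 7.21 and 7.28 in control liver. NEMO and KEAP1 knockouts were above controls without overlap, and the NEMO knockout difference of 0.26 did not pass (adjusted p = 0.187). Mx1 lay at 3.54, 3.35 and 3.55 in NEMO knockout liver, at 3.91, 3.41 and 3.60 in KEAP1 knockout liver and at 3.80, 3.57 and 4.22 in double knockout liver, against 3.46, 3.18 and 3.55 in control liver. Double knockout array 3, with the high Adipoq, was the highest of these, and the double knockout difference of 0.46 did not pass (adjusted p = 0.202). Psmb8 lay at 7.13, 6.62 and 7.05 in KEAP1 knockout liver and 6.73, 6.89 and 6.79 in double knockout liver, against 7.33, 6.66 and 6.77 in control liver, and both knockouts overlapped the controls.

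Bst2 was lower in double knockouts than in NEMO knockouts in both sample types. Bst2 encodes tetherin, a membrane protein that holds budding viruses on the cell surface. In liver it lay at 9.70, 9.82 and 9.80 in double knockouts, against 10.63, 10.26 and 10.40 in NEMO knockouts, and in hepatocytes at 9.78, 9.66 and 9.54 in double knockouts, against 10.08, 10.14 and 10.18 in NEMO knockouts. The groups did not overlap in either sample type. In control liver Bst2 lay at 10.00, 10.00 and 9.93, and in control hepatocytes at 9.96, 9.92 and 9.70. Bst2 fell by 0.66 (SE 0.10, adjusted p = 0.015) in double knockout liver relative to NEMO knockout liver, the only gene of 35 to pass (2.86%), beside 1.05% of all genes. In hepatocytes it fell by 0.47 (SE 0.10, adjusted p = 0.021), again 1 of 35 (2.86%), beside 3.32%. Without the 4 arrays these counts were 2 of 35 (5.71%) in liver, beside 3.46%, where Usp18 (-1.08) joined Bst2 (-0.67, adjusted p = 0.00665), and 1 of 35 (2.86%) in hepatocytes, beside 3.8%, which was Bst2 (-0.41, adjusted p = 0.0473). In hepatocytes the share of the 35 genes was thus below that of all genes.

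The liver call for Bst2 was lost without NEMO knockout array 3 or double knockout array 1 or 2 (adjusted p of up to 0.0808), and the hepatocyte call without any 1 of the NEMO knockout arrays or double knockout array 2 or 3 (up to 0.0767). Without liver control array 3, Stat2 and Usp18 also passed in liver, beside 2.81% of all genes, and without hepatocyte KEAP1 knockout array 1 the hepatocyte count was 2, beside 2.66%. Relative to KEAP1 knockouts, 0 of 35 genes passed in double knockout liver, beside 0% of all genes (2 at an unadjusted p under 0.05 in limma), and 0 of 35 in double knockout hepatocytes, beside 2.75% (6 at an unadjusted p under 0.05). When the 4 arrays were left out, these were 0 of 35, beside 0.0531%, and 1 of 35, beside 3.78%, when Ifit1 was lower by 1.03 in double knockout hepatocytes (adjusted p = 0.00893). Whether the loss of both proteins departed from the sum of the single losses was tested as an interaction, and 0 of 35 genes passed in liver, beside 0.0106%, and 0 of 35 in hepatocytes, beside 0.0425%, with 2 and 5 at an unadjusted p under 0.05 in limma. The interaction of Bst2 was -0.65 in liver and -0.46 in hepatocytes (adjusted p = 0.402 and 0.273), and that of Isg15 in hepatocytes was 0.99 (adjusted p = 0.223).

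Within NEMO knockout liver, array 1 stood above the others in GTPase and antigen-processing genes, which interferon gamma strongly induces. Of the 35 genes, 17 (48.6%) had their highest liver value on that array, and 6.30% of all genes did. The GTPases, which attack the vacuoles of intracellular microbes, were the clearest. Gbp2 lay at 7.19, 5.74 and 5.79 in NEMO knockout liver, at 5.55, 5.31 and 5.58 in KEAP1 knockout liver and at 5.28, 5.33 and 6.10 in double knockout liver, against 5.38, 4.38 and 5.25 in control liver. Array 1 was 1.09 above the next liver array, and arrays 2 and 3 were within the range of the double knockouts. In NEMO knockout liver Gbp7 lay at 8.64, 7.59 and 7.35, Gbp3 at 7.02, 5.94 and 5.83, Gbp5 at 5.31, 3.83 and 3.88 and Irgm1 at 8.73, 7.39 and 7.46. These Gbp genes are related neighbours on chromosome 3, and how the array divides signal between them is uncertain. The antigen-processing genes did the same, with Psmb9 at 7.73, 6.29 and 6.55, Tap1 at 7.45, 6.43 and 6.40 and Psmb8 at 7.83, 6.88 and 7.22.

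Expressed as the mean difference from each gene's mean over all liver arrays, the GTPases stood at 1.23 on array 1 of NEMO knockout liver and at -0.05 and -0.08 on arrays 2 and 3, while the other liver groups spanned -0.52 to 0.14. Antigen processing stood at 1.13 on array 1 and at -0.01 and 0.18 on arrays 2 and 3, with -0.55 to 0.23 elsewhere. On array 1 the ISG15 system stood at 0.58, the transcription factors at 0.50 and the nucleic acid sensors at 0.40, each the highest of the 12 liver arrays. The IFIT family, the OAS family and the other effectors stood at 0.18, -0.06 and -0.00. The median change of the GTPases in NEMO knockout liver against control was 0.56 with that array and 0.17 without it, and that of antigen processing 0.46 and 0.13, while none of these genes passed with all arrays. On the same array Ifng stood at 3.55, its highest value of the 24 arrays and still close to the level of an unexpressed gene, with 3.13 and 2.82 on arrays 2 and 3. Cxcl9, a chemokine induced by interferon gamma, stood at 7.94, with 6.22 and 6.28 on arrays 2 and 3, 6.95 to 7.09 in KEAP1 knockout liver, 5.82 to 6.33 in double knockout liver and 7.68, 6.80 and 6.33 in control liver. The mean of 12 T and NK cell markers was 3.77 on array 1 and 3.29 and 3.36 on arrays 2 and 3, with 3.19 to 3.45 on the other liver arrays. The part of these cells in the array's high values was not tested.

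**Figure D5:**
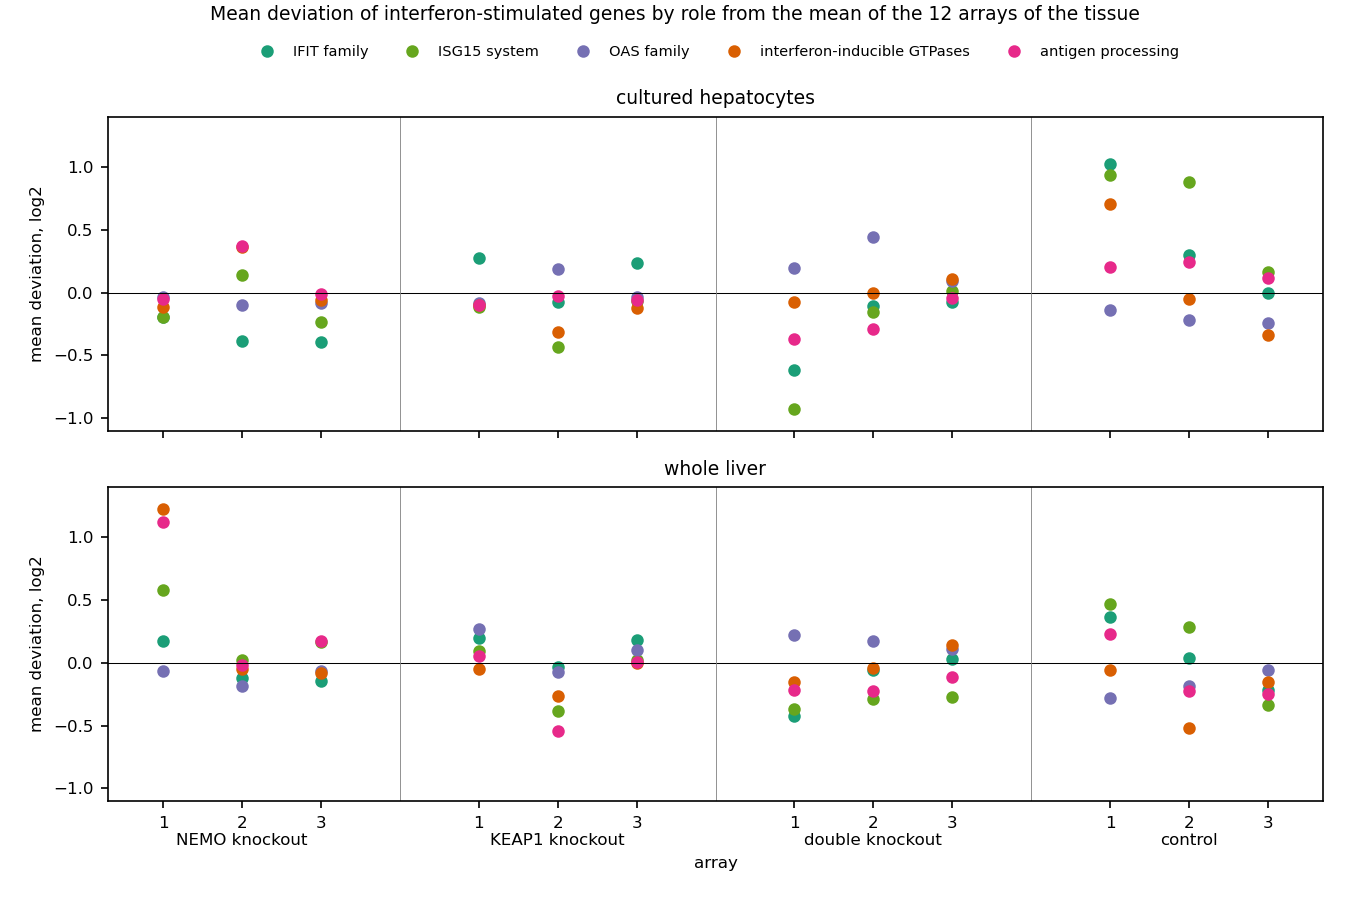
Mean log2 difference of the genes of each role from each gene's mean over the arrays of the same sample type (y axis), for every array, with the groups along the x axis and knockouts left of control. On liver NEMO knockout array 1 the GTPases stand at 1.23 and antigen processing at 1.13, while the IFIT and OAS families stand at 0.18 and -0.06.

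Control hepatocytes had a similar spread between arrays. Hepatocyte control array 1, one of those with high Xist, held the highest hepatocyte value of 15 of the 35 genes (42.9%), and of 11.7% of all genes. On control arrays 1, 2 and 3 the IFIT family stood at 1.02, 0.30 and 0.00 relative to the mean of all hepatocyte arrays, the ISG15 system at 0.94, 0.88 and 0.16 and the GTPases at 0.71, -0.05 and -0.34. The lower Isg15 and Usp18 of knockouts was therefore measured against 2 high control arrays and 1 lower one, and the lower Ifit1 and Ifit3 against control levels of which array 1 was the highest.

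Hepatocytes after culture were compared with whole liver of the same genotype, and every gene of the list that passed was lower in hepatocytes. Most of all genes that passed were lower too, 505 of 710 in NEMO knockouts and 380 of 469 in KEAP1 knockouts. In double knockouts 337 of 422 were lower, and in controls 723 of 966. The direction is therefore not particular to the 35 genes. In NEMO knockouts 4 of 35 passed, beside 3.77% of all genes: Gbp2 (-1.38, SE 0.38, adjusted p = 0.0469), Oasl2 (-0.89, SE 0.24, adjusted p = 0.0411), Irf8 (-0.85, SE 0.23, adjusted p = 0.0395) and Parp14 (-0.64, SE 0.17, adjusted p = 0.0413). In KEAP1 knockouts 4 of 35 passed, beside 2.49%: Oas1a (-1.21, adjusted p = 0.0167), Oas2 (-1.18, adjusted p = 0.00393), Oasl2 (-0.91, adjusted p = 0.0447) and Parp14 (-0.68, adjusted p = 0.0374). In double knockouts 2 of 35 passed, beside 2.24%: Oasl2 (-1.08, adjusted p = 0.0183) and Oas2 (-0.83, adjusted p = 0.0464). In controls 3 of 35 passed, beside 5.13%: Oas2 (-1.43, SE 0.22, adjusted p = 0.000215), Oasl2 (-1.31, SE 0.24, adjusted p = 0.0014) and Irf8 (-1.14, SE 0.23, adjusted p = 0.00323).

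Oasl2 passed in all 4 genotypes. Its hepatocyte levels, given above, stood against 6.40, 5.67 and 6.18 in NEMO knockout liver, 6.40, 5.64 and 6.34 in KEAP1 knockout liver, 5.99, 6.07 and 6.63 in double knockout liver and 5.42, 5.58 and 6.15 in control liver. In each genotype the hepatocyte arrays were all below the liver arrays. Oas2 lay at 4.98, 4.83 and 5.17 in NEMO knockout liver, at 5.51, 5.15 and 5.15 in KEAP1 knockout liver, at 5.33, 5.19 and 5.47 in double knockout liver and at 4.87, 5.10 and 4.95 in control liver. In each genotype these levels were above the hepatocyte levels of Oas2. Irf8 lay at 5.97, 5.50 and 5.47 in NEMO knockout liver, at 5.07, 4.82 and 5.00 in KEAP1 knockout liver, at 5.43, 5.16 and 5.41 in double knockout liver and at 4.66, 5.05 and 5.33 in control liver. In control liver the lowest Irf8 level was still above the highest of control hepatocytes (4.34). Parp14, an ADP-ribosyltransferase, lay at 6.65, 6.74 and 7.01 in NEMO knockout hepatocytes, against 7.78, 7.20 and 7.33 in NEMO knockout liver, and at 6.68, 6.84 and 6.87 in KEAP1 knockout hepatocytes, against 7.57, 7.30 and 7.56 in KEAP1 knockout liver. Oas1a lay at 3.06, 4.09 and 4.16 in KEAP1 knockout hepatocytes, against 4.98, 4.89 and 5.07 in KEAP1 knockout liver. Neither gene's groups overlapped.

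Macrophage, endothelial and stellate markers were also lower in control hepatocytes than in control liver, with 10 of 11, 6 of 6 and 4 of 6 passing (5, 6 and 4 without the 4 arrays). In NEMO and double knockouts 0 macrophage, 0 endothelial and 5 stellate markers passed, all lower, and in KEAP1 knockouts 0, 2 and 4. In double knockouts, where Oasl2 and Oas2 were lower, the macrophage markers lay at 7.77 to 8.22 in hepatocytes, against 8.08 to 8.19 in liver. The part of these cells in the result was not tested. The 3 calls in controls and that of Oas2 in KEAP1 knockouts were kept when any 1 array was left out. In NEMO knockouts the call of Irf8 was lost without any 1 of the 6 NEMO knockout arrays of either sample type (adjusted p of up to 0.176). Those of Oasl2 and Parp14 were each lost without any 1 of 6 arrays, among them liver NEMO knockout arrays 1 and 3, hepatocyte NEMO knockout arrays 1 and 2 and hepatocyte KEAP1 knockout array 2, the sixth being hepatocyte NEMO knockout array 3 for Oasl2 (up to 0.177) and liver KEAP1 knockout array 1 for Parp14 (up to 0.201). In KEAP1 knockouts Oas1a was lost without hepatocyte array 1 or liver array 1 or 3 (up to 0.095), and Parp14 without any 1 hepatocyte array or liver array 1 or 3 (up to 0.146). In double knockouts Oasl2 was lost without hepatocyte array 1 or 3 or liver array 3 (up to 0.157). Gbp2 in NEMO knockouts, Oasl2 in KEAP1 knockouts and Oas2 in double knockouts passed so narrowly that 16, 11 and 17 of the 24 arrays each ended the call when left out (up to 0.232, 0.193 and 0.231). Counts over the arrays left out ran from 0 to 4 in NEMO knockouts, beside 1.11% to 5.73% of all genes. They ran from 1 to 4 in KEAP1 knockouts, beside 0.824% to 4.47%, and from 0 to 3 in double knockouts, beside 0.701% to 3.55%. In controls they ran from 3 to 6, beside 3.39% to 6.17%. Without the 4 arrays, 4 passed in NEMO knockouts, beside 7.86% of all genes, 4 in KEAP1 knockouts, beside 6.47%, 0 in double knockouts, beside 0.792%, and 2 in controls, beside 3.06%, where Irf8 no longer passed (-0.81, adjusted p = 0.091). Whether the change in NEMO knockouts differed between liver and hepatocytes was tested directly, and 0 of 35 genes passed, beside 0.0691% of all genes (8 at an unadjusted p under 0.05 in limma).

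The remaining genes of the interferon pathway were read from 5 further lists. Of 14 measured interferon genes, 0 passed in any of the 17 comparisons, and Ifnb1 lay at 2.12 to 3.03 and Ifng at 2.76 to 3.55 over all arrays, near the level of an unexpressed gene. Of 14 measured receptor and JAK-STAT genes, 2 passed as higher in NEMO and in double knockout hepatocytes against control: Ifngr1, a chain of the interferon gamma receptor (0.88 and 0.98), and Il10rb, a chain shared by the interferon lambda and interleukin 10 receptors (0.90 and 1.26). Of 15 measured upstream sensors and adaptors, the RNA receptor Tlr7 was higher in NEMO, KEAP1 and double knockout hepatocytes (1.16, 1.23 and 1.68) and the lipopolysaccharide receptor Tlr4 in NEMO and double knockouts (0.80 and 1.04). Of all genes, 6.65%, 1.87% and 9.72% passed in either direction in NEMO, KEAP1 and double knockout hepatocytes. With so few calls, neither the receptor list nor the sensor list was set apart from all genes.

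Of 37 measured other interferon-induced genes, 7 passed as higher and 2 as lower in NEMO knockout hepatocytes, 2 and 1 in KEAP1 knockouts, and 11 and 7 in double knockouts, beside 6.65%, 1.87% and 9.72% of all genes in either direction. The chemokine gene Cxcl9 lay at 5.31, 5.67 and 5.59 in NEMO knockout hepatocytes, at 7.34, 6.53 and 6.90 in KEAP1 knockouts and at 5.56, 5.38 and 5.94 in double knockouts, against 7.83, 6.85 and 7.72 in controls. It fell by 1.94 in NEMO knockouts and by 1.84 in double knockouts, the arrays of which were all below those of the KEAP1 knockouts and controls. Rtp4 fell by 0.72 and 0.71 in the same groups, while Ifi205 (1.91 and 1.90) and Ifi203 (1.13 and 1.24), of the PYHIN family of DNA-binding proteins, and Sp100 (1.12 and 1.18), a component of nuclear bodies, rose. Of 11 measured genes of peptide loading and MHC class I, H2-K1 fell by 0.39 in KEAP1 and by 0.63 in double knockout hepatocytes, and Tap2, the partner of Tap1, fell by 0.62 in double knockouts. These few calls stood beside 1.87% and 9.72% of all genes in KEAP1 and double knockouts. When the 4 arrays were left out, Tlr4 and Ifi203 in NEMO knockouts and H2-K1 in KEAP1 knockouts no longer passed, and of the other interferon-induced genes 5 were higher and 2 lower in NEMO knockouts, 1 and 0 in KEAP1 knockouts, and 9 and 7 in double knockouts, beside 5.58%, 1.82% and 9.23% of all genes.

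Among genes outside the 35 and the further lists, those whose pattern was most like the mean of the 35 were ranked by Pearson correlation as a description. After each group's mean was removed, so that only the spread between arrays of a group counted, AW112010 (0.88), Cd274 (0.84), Gm12250 (0.83), Tnfrsf14 (0.80) and Gpr132 (0.79) were closest over the 24 arrays. Over the 8 group means, Nfat5 (0.97), Papolg (0.96), Pdik1l (0.96), Trappc5 (0.95) and Gdf6 (0.95) were closest. These correlations rest on arrays that share their processing and on only 8 group means, and the 2 lists had no gene in common.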

How the data were processed

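RNA from cultured hepatocytes and whole livers was measured on Affymetrix whole-transcript arrays, 24 in all. The deposited values were log2 probe-set levels normalised by the authors with RMA, per the submitters' processing notes (version not given in the sources used here). Its table held 35556 probe sets, of which 21218 carried 1 gene symbol, 1881 several and 12457 were not listed in the platform annotation. The brightest probe set of each symbol was kept, giving 18820 genes. Nothing was normalised again. Each sample type was fitted with limma 3.58.1 in R 4.3.3 (linear models moderated by eBayes with trend) over its 4 genotypes, and comparisons of hepatocytes with liver over all 8 groups. P-values were adjusted by Benjamini-Hochberg over all 18820 genes, and passing means an adjusted p under 0.05. Tables were made with Python 3.11.15, pandas 2.3.3 and numpy 2.4.6. The fit was tested on simulated data. Genes given array by array were those that passed, up to 8 per comparison, and 1 per role throughout (Irf7, Ddx58, Isg15, Ifit1, Oasl2, Mx1, Gbp2 and Psmb8); genes of the further lists were named where they passed, up to 6 per list and comparison; genes that passed only without some arrays, and members named with values that did not pass, were chosen after their values were seen. The members, lists and alternatives were chosen with earlier results of these data known. Deviations of arrays with the same replicate number were weakly correlated between control and double knockout livers (0.12, 0.14 and 0.23). Only there did all 3 correlations pass the cut used, and NEMO and double knockout livers had 0.02, 0.21 and 0.26. The labels do not say what a replicate number shares, so the main fit had no block. There were 0 columns of no known sample, and the labels give no scan dates, so no batch was tested.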

Additional observations from a re-analysis of the deposited data

How the results depend on the processing

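Counts are of the 35 genes that passed, and except where 1 array was left out only those that moved by more than 1.5 times are given. With the replicate number as a block the count was 1 in NEMO knockout liver and 2 in double knockout liver. In double knockout liver the share of all genes rose with it, from 0.00531% to 4.25%. The count was also 2 for KEAP1 knockout hepatocytes against liver and 1 for double knockout hepatocytes against liver. The other counts of this and the next refits, up to that without the 4 arrays, have no share of all genes here. They therefore do not show whether the 35 genes or all genes moved. Without the intensity trend the count was 0 for double against NEMO knockout hepatocytes. After quantile normalisation it was 0 in KEAP1 knockout hepatocytes, 2 for double against NEMO knockout hepatocytes, and 0, 1 and 1 for hepatocytes against liver in NEMO, KEAP1 and double knockouts. With genes of mean under 4 left out it was 1 in NEMO knockout liver, 2 in KEAP1 knockout hepatocytes and 2 for double against NEMO knockout hepatocytes. With only the 2 groups compared in the fit it was 0 in KEAP1 knockout hepatocytes, 4 in double knockout hepatocytes and 0 for double knockout hepatocytes against liver. Without the 4 arrays that stood apart, an alternative chosen after seeing the data, it was 4, 4 and 2 in liver for NEMO knockout and double knockout against control and double against NEMO knockout. In hepatocytes it was 2, 0 and 5 for NEMO, KEAP1 and double knockout against control and 1 for double against KEAP1 knockout, and it was 0 for double knockout hepatocytes against liver. With 1 array left out at a time it ran from 0 to 3 in NEMO knockout liver, 0 to 5 in double knockout liver, 0 to 3 for double against NEMO knockout liver, 2 to 5, 0 to 3 and 4 to 13 in NEMO, KEAP1 and double knockout hepatocytes, 0 to 2 for double against NEMO knockout hepatocytes, and 0 to 4, 1 to 4, 0 to 3 and 3 to 6 for hepatocytes against liver in NEMO, KEAP1, double knockout and control, and stayed at 0 in the other 6 comparisons. Over the same refits the share of all genes ran from 0.122% to 7.49% in NEMO knockout liver and 0% to 11.7% in double knockout liver. It ran from 0.085% to 2.81% for double against NEMO knockout liver and 1.56% to 3.8% for double against NEMO knockout hepatocytes. In KEAP1 knockout hepatocytes that share ran from 0.654% to 2.16%. Of the 29 calls named, 24 were kept with the block, 28 without the trend, 17 after quantile normalisation, 29 without dim genes, 29 with the mean of a gene's probe sets, 18 in fits of 2 groups and 19 without the 4 arrays. None changed sign, and 7 were kept whichever 1 array was left out. The cause of these changes was not tested. Dim genes such as Ifit2 and Mx1, and Oas2 and Irf8 in control hepatocytes, lie near background, where array signal limits what can be seen.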
